A study of Mus musculus with 2 samples.

Results

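The SoxC, SoxE and SoxF genes encode 9 transcription factors of the Sox family: Sox4, Sox11 and Sox12 (SoxC), Sox8, Sox9 and Sox10 (SoxE), and Sox7, Sox17 and Sox18 (SoxF). They were chosen by name as Sox genes of the outflow tract, valves, neural crest and endothelium, out of 21779 protein-coding genes of the RefSeq annotation of mouse build GRCm38.p6, by a rule that uses no measured value, although earlier results of these data were known when the genes were listed. A binding summit of Sap130 was counted for a gene when it lay inside the gene or within 10000 bp of it. This gave 24 of the 14886 summits in the deposited list. The summits came from 1 chromatin immunoprecipitation (ChIP) library from a pull-down with a rabbit anti-Sap130 antibody (2 µg) on hearts of C57BL/6 embryos of stage E12.5, with peaks called by the authors against 1 library of input DNA of the same stage, strain and tissue made without antibody. The number of hearts behind each library is not stated in the labels. The comparison of the libraries asks where on the genome Sap130 sits in the heart at that stage.

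Sox proteins bind the minor groove of DNA through a high mobility group (HMG) box and bend it. Sap130 belongs to the Sin3 corepressor, which carries histone deacetylases to the genes where it is bound. SoxC factors act in mesenchyme and neural crest progenitors and are needed for septation of the outflow tract, with Sox4 and Sox11 having the larger roles and overlapping ones with Sox12. Sox9 acts in the mesenchyme of the valve cushions and in cartilage, Sox10 in migrating neural crest and glia, and Sox8 overlaps with both. SoxF factors act in endothelium: Sox17 in endocardium and arteries, Sox18 in lymphatic vessels, where it turns on Prox1, and Sox7 in blood vessels.

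The authors' score of a summit was taken as a −log10 p or −log10 q, the form their peak caller writes, and it is used here only to order summits within this list. It has no unit of binding strength. The median score over all summits was 33.3, the quartiles were 13.9 and 65.2, and the highest score was 428. There was 1 ChIP library, so no value below has a replicate error and no test between genes was made. The sequencing depth was unknown.

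RefSeq start windows, from 250 bases before the start of transcription to 50 bases after it, were matched for Sox4, Sox11, Sox12 and Sox8, all on the minus strand of GRCm38.p6. They are shown because each of these genes has a summit within 1000 bp of its start and because the windows differ in composition. Of the 15 summits of these genes, 6 lay within 1000 bp of a start. None of these 6 lay inside a window, so the sequences are those at the starts and not at the summits. Sox14, a Sox gene of the nervous system with no summit in reach, is given beside them. Capitals mark the GC box (GGGCGG, or CCGCCC on the other strand) and the CCAAT box (CCAAT, or ATTGG on the other strand). The windows are those of Sox4 at chr13:28953650-28953949, Sox11 at chr12:27342669-27342968, Sox12 at chr2:152397997-152398296, Sox8 at chr17:25570637-25570936 and Sox14 at chr9:99876121-99876420.
Sox4: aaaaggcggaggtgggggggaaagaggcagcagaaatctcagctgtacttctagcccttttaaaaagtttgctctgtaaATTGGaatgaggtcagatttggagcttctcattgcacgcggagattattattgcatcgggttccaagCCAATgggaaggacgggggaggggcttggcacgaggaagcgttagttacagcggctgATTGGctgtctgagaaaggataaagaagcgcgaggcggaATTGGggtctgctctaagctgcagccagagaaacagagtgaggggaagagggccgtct
Sox11: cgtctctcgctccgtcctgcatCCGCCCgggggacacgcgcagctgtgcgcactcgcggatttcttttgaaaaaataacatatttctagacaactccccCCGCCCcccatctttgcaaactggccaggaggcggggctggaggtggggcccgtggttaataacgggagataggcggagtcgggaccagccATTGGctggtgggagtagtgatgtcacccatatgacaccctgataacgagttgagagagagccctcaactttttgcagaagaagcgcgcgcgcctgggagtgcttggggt
Sox12: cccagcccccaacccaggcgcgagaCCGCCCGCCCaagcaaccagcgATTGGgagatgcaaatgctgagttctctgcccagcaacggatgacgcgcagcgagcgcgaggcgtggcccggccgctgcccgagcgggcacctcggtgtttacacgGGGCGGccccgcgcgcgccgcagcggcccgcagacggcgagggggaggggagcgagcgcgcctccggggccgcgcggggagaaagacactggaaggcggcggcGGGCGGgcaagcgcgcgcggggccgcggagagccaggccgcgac
Sox8: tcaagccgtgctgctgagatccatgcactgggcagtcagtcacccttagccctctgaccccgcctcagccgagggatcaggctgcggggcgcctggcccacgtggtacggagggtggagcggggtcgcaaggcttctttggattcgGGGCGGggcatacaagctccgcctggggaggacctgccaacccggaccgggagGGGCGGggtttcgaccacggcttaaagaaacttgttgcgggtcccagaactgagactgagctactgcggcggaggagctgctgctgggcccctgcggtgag
Sox14: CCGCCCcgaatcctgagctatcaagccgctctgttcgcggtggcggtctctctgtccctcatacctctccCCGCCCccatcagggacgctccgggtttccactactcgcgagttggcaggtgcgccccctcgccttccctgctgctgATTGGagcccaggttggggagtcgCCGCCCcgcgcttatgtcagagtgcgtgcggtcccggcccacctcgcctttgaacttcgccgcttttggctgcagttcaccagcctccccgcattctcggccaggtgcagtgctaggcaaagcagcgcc

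The Sox4 window held 4 CCAAT boxes and 0 GC boxes. The Sox11 window held 1 CCAAT box and 2 GC boxes, that of Sox12 held 1 and 4, with 2 of its GC boxes overlapping, and that of Sox8 held 0 and 2. The Sox14 window held 1 CCAAT box and 3 GC boxes. Over the 21263 windows of protein-coding genes, 46.2% held a GC box and 38.2% a CCAAT box. Of the other motifs searched on both strands, the E-box CACGTG was found once, in the Sox8 window (7.84% of all windows). TATAAA (12.6%), the ETS-type motif CCGGAAG (11.6%) and the Sox core ACAAT (27.7%), which lies within the longer Sox motif AACAATG (3.25%), were in none of these 5 windows, nor was AACAAAG (5.01%). The GC content was 52.0% for Sox4, 58.7% for Sox11, 76.7% for Sox12, 66.3% for Sox8 and 66.0% for Sox14, beside a median of 56.3% over all windows. The ratio of observed to expected CpG was 0.679 for Sox4, 0.817 for Sox11, 1.07 for Sox12, 0.647 for Sox8 and 0.820 for Sox14, beside a median of 0.567. All windows were put in 4 bins of near-equal size by this ratio, and the share with a summit within 1000 bp of the start was 1.86% in bin 1 (lowest ratio), 25.8% in bin 2, 79.9% in bin 3 and 94.0% in bin 4. The windows of Sox4, Sox11, Sox8 and Sox14 fell in bin 3 and that of Sox12 in bin 4.

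A summit was in reach of 8 of the 9 genes, all except Sox10, beside 60.1% of all protein-coding genes and 42.2% of the 7646 genes no longer than the longest of the 9 (9578 bp). The same 8 genes had a summit inside the gene, beside 50.9% of all genes and 31.2% of the shorter ones. SoxC genes held 13 summits with scores up to 101, SoxE genes 6 with scores up to 56.8 and SoxF genes 5 with scores up to 27.4. Of the 24 summits, 15 lay inside a Sox gene and 9 outside. A Sox gene was the nearest protein-coding gene for 22 of them. The others, 1 near Sox8 (56.8) and 1 near Sox18 (27.4), lay inside a neighbouring gene. Without them, the highest score was 27.2 for SoxE genes and 7.69 for SoxF genes.

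**Figure D1:**
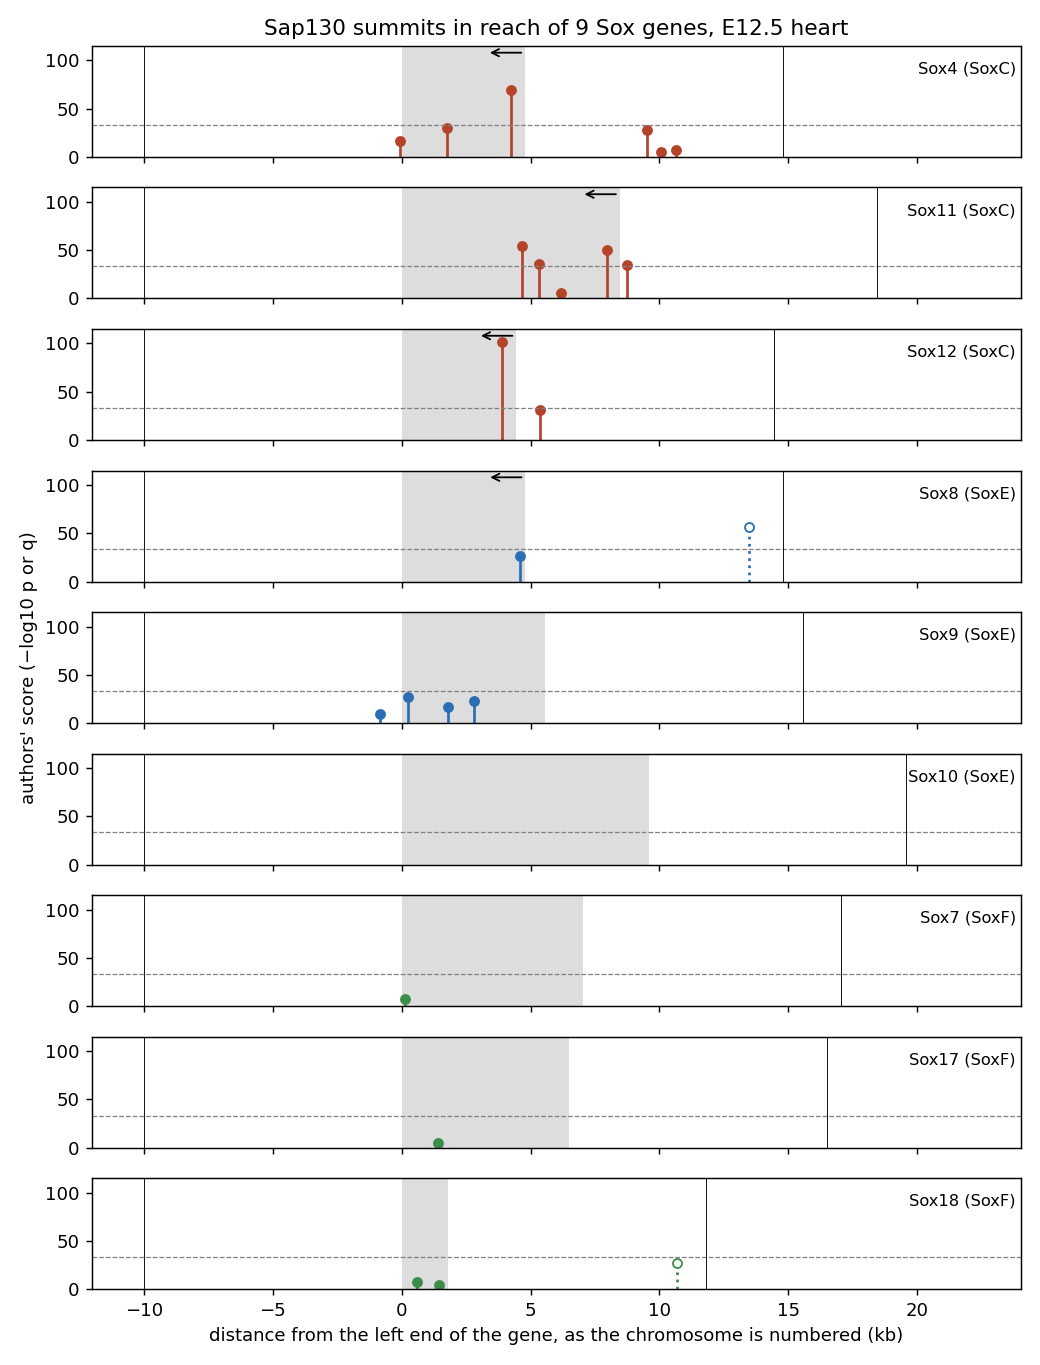
Summits in reach of each Sox gene, as distance from the gene's left end in kb (horizontal) against the authors' score (vertical). Grey blocks are the genes, thin vertical lines the limits of reach, arrows the direction of transcription where a RefSeq window gave it, the dashed line the median score of all summits (33.3), and open points with dotted stems summits that lie inside a neighbouring gene. SoxC genes hold the 6 filled points above the dashed line, and the filled points of SoxF genes stay at 7.69 or below.

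Sox4 (chromosome 13, 28948919 to 28953699) had 6 summits in reach. The highest, with a score of 69.0, lay at 28953179, inside the gene and 520 bp downstream of its start. Another lay 3019 bp downstream of the start with 30.4, and 1 with 16.0 lay 49 bp beyond the other end of the gene. A further 3 lay together upstream, at 4736, 5297 and 5865 bp from the start, with scores of 28.3, 5.25 and 6.67. The gene thus had 1 summit above the median of the list and 5 below it. No other protein-coding gene was within 10000 bp of these summits, but all 6 lay inside the long noncoding RNA gene Gm46405, which spans the whole of Sox4. The upstream 3 were also 689 to 1818 bp from the noncoding gene Gm52067.

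Sox11 (chromosome 12, 27334268 to 27342718) had 5 summits, 4 of them inside the gene. They formed a pair of clusters. Around the start, a summit of 50.1 lay 487 bp downstream at 27342231, and a summit of 34.3 lay 295 bp upstream. Deeper in the gene, summits of 54.3, 35.6 and 5.74 lay 3774, 3121 and 2255 bp downstream of the start. The highest score was thus in the body of the gene and not at its start. The 5 summits spanned 4069 bp, 4 of them scored above the median of the list, and each had another within 1000 bp. Of the 24 summits at the 9 genes, 12 had another within 1000 bp, beside 28.8% of all 14881 summits on named nuclear chromosomes.

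Sox12 (chromosome 2, 152393611 to 152398046) had 2 summits. The first, at 152397521 and 525 bp downstream of the start, had the highest score of any of the 9 genes, 101. The other lay 944 bp upstream with 31.1. No other protein-coding gene was in reach of either.

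Sox8 (chromosome 17, 25565893 to 25570686) had 2 summits. The summit inside the gene, at 25570474 and 212 bp downstream of the start, scored 26.2 and lay 337 bp from the noncoding gene Cerox1. The other scored 56.8 but lay 8663 bp upstream of Sox8 and 175 bp inside Lmf1, which encodes a maturation factor of lipases, so it belongs to Sox8 only by the width of the reach.

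Sox9 (chromosome 11, 112782210 to 112787757) had 4 summits, 3 of them inside the gene. Counted from the left end as the chromosome is numbered, they lay 824 bp outside the gene with a score of 9.65 and 253, 1806 and 2803 bp inside it with 27.2, 17.1 and 22.5. All 4 were below the median of the list, and none lay within 10000 bp of another protein-coding gene. Sox9 thus resembled Sox4 and Sox11 in having at least 4 summits. Its highest score was below those of Sox4 (69.0) and Sox11 (54.3). Of the 6 Sox4 summits, however, only 1 was above that median, and the lowest scored 5.25, less than any Sox9 summit.

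Sox10 (chromosome 15, 79154913 to 79164490) had none. The nearest summit lay 13467 bp outside the gene, with a score of 111, at 121 bp from an end of Polr2f, which encodes a subunit shared by the nuclear RNA polymerases, and 195 bp from an end of 1700088E04Rik. Within the SoxE group, Sox9 thus had 4 summits and Sox10 none.

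Each of the SoxF genes held a summit inside the gene, and all of these scored low. Sox7 (chromosome 14, 63943706 to 63950732) had 1 summit, 138 bp inside its left end, with a score of 6.91. Sox17 (chromosome 1, 4490928 to 4497426) had 1, 1401 bp inside its left end, with 5.31. Sox18 (chromosome 2, 181669837 to 181671640) had 2 inside the gene, 598 and 1455 bp from its left end, with 7.69 and 4.76. All 4 were below the lower quartile of all summits (13.9). Another summit in reach of Sox18 scored 27.4 but lay 8880 bp outside the gene and 223 bp inside Tcea2, which encodes a transcription elongation factor.

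With each summit given to its nearest protein-coding gene, the order of the highest scores followed the groups. Sox12 (101), Sox4 (69.0) and Sox11 (54.3) came first, then Sox9 (27.2) and Sox8 (26.2), and then Sox18 (7.69), Sox7 (6.91) and Sox17 (5.31). Among the 11404 protein-coding genes that have a summit in this sense, whose highest scores had a median of 46.1, the SoxC genes stood at percentiles 88.1 (Sox12), 70.0 (Sox4) and 57.5 (Sox11). Sox9 and Sox8 stood at 30.5 and 29.4, and Sox18, Sox7 and Sox17 stood below the fifth percentile, at 4.92, 3.84 and 1.6. The highest score was at or above the median of the list (33.3) for 3 of these 8 Sox genes, all SoxC, beside 63.2% of the 11404. It was under 10 for the 3 SoxF genes, beside 8.38% of the 11404. In the gene lists described below, it was under 10 for 6 of 11 cardiac muscle and 5 of 17 outflow tract genes. The counts were 3 of 12 for crest and glia, 2 of 14 for endothelium and 1 of 15 for valve. They were 1 of 12 for Sox partners and targets and 0 of 7 for the other Sox genes. Whether neighbours in this order, such as Sox9 and Sox8, differ cannot be said from 1 library.

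**Figure D2:**
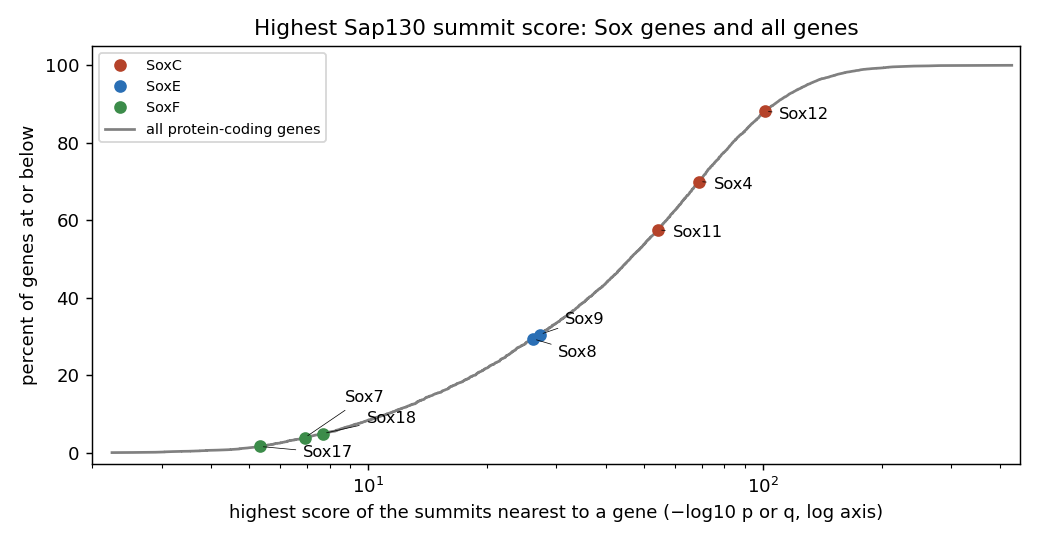
Highest score among the summits nearest to a gene (horizontal, log axis) against the percent of protein-coding genes at or below it (vertical), for 8 Sox genes (points) and all 11404 genes with such a summit (line). SoxC genes sit at percentiles 57.5 to 88.1, SoxE genes at 29.4 and 30.5 and SoxF genes at 1.6 to 4.92. Sox10 has no summit and is not drawn.

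Sox4, Sox11 and Sox9 held several summits although they are short genes. Each had at least 4 in reach, beside 3.63% of all protein-coding genes and 3.45% of those no longer than 9578 bp. Sox4 and Sox11 had at least 5 (1.21% and 1.18%), and Sox4 had 6 (at least 6 in 0.491% and 0.523%). Inside the gene, Sox11 held 4 summits, a number reached by 0.546% of all genes and 0.118% of the shorter ones. Sox9 held 3 (at least 3 in 1.91% and 0.471%).

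Near the start, the highest-scoring summit of each SoxC gene lay deeper in the gene than that of most genes in this library. In the 7207 genes with 1 RefSeq window and a summit within 1000 bp of the start, the highest-scoring such summit lay a median of 185 bp downstream of the start, with quartiles of 119 and 248 bp. For Sox4, Sox11 and Sox12 it lay 520, 487 and 525 bp downstream, within 38 bp of each other, and 6.22% of the 7207 genes had it 487 bp downstream or farther. Sox8, at 212 bp, lay between the quartiles. The other SoxE and SoxF genes could not be placed on this scale.

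**Figure D3:**
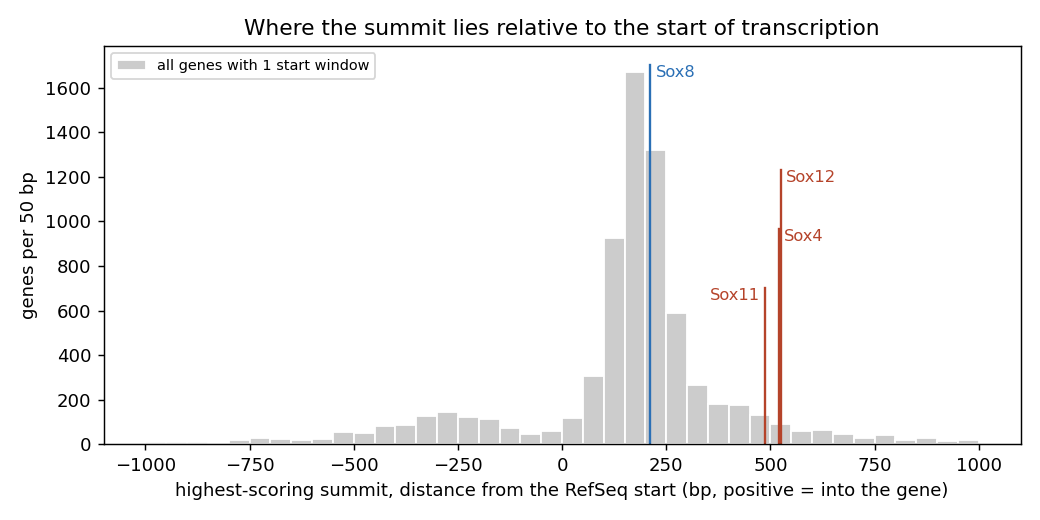
Distance from the RefSeq start to the highest-scoring summit within 1000 bp, in bp, positive into the gene, for 7207 genes (grey bars, genes per 50 bp), with lines at Sox8 and the 3 SoxC genes. Line heights carry no value. The SoxC genes lie at 487 to 525 bp, in the right tail, and Sox8 at 212 bp lies in the main peak.

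The highest scores of the other Sox genes with a summit lay below those of the 3 SoxC genes, except that Sox13 exceeded Sox11 (54.3) alone. All lay above those of the SoxF genes' own summits. Of the other 11 Sox genes, 8 had a summit in reach, with a median highest score of 20.3, beside 8 of the 9 and 40.9 for the 8 SoxC, SoxE and SoxF genes that had one and 54.7 over all genes with a summit in reach. The 40.9 rests partly on the summits inside Lmf1 and Tcea2: with each summit given to its nearest gene, the median was 26.7 for the same 8 genes, 17.8 for the 7 other Sox genes that kept one and 46.1 over all genes. None of the 11 had 4 or more. The highest was Sox13 (68.0), a SoxD gene, ahead of its relatives Sox6 (28.5) and Sox5 (26.1), which act in cartilage and muscle. Sox1, Sox3 and Sox2, the SoxB1 genes of neural progenitors, had 17.8, 11.6 and 10.4, and Sox21 had 13.5. The summit of 22.8 counted for Sox15 lay 5711 bp outside that gene and at Mpdu1. Sox14, Sox30 and Sry had none in reach: the nearest lay 244091 bp from Sox14 and 23733 bp from Sox30, and the Y chromosome, which carries Sry, the gene that starts testis development, held no summit.

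Genes of the tissues in which these Sox factors act had summits in reach in 57.7% to 85.7% of cases, beside 60.1% of all genes, and their median highest scores lay between 16.3 and 26.9, beside 54.7. The lists share a few genes, such as Twist1 and Msx1, and no test was made between them. Among genes of the outflow tract and second heart field, 18 of 21 had a summit in reach and 5 had 4 or more, but the median highest score was 16.3. The highest scores were at Foxh1 (176), Hes1 (69.6), Fgf8 (68.8) and Foxc2 (31.3), with the summits of Foxh1 and Fgf8 within 1000 bp of a neighbouring gene. Hand2 had 7 summits, up to 28.4, and Tbx1, Tbx3 and Fgf10 had none. Valve and cushion genes had summits in 15 of 18 cases, with a median of 20.8. There the highest were Notch1 (62.2), Nfatc1 (52.7), Tgfb2 (48.6) and Smad6 (42.9), while Acan, Hapln1 and Postn, of the extracellular matrix, had none. Tbx20 and Col2a1, a collagen gene that Sox9 turns on in cartilage, had 5 summits each, both with a highest score of 20.2.

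Neural crest and glial genes had summits in 13 of 19 cases, with a median of 17.5. The score of 102 counted for Erbb3 came from a summit at the neighbouring gene Pa2g4. Mitf had 28.9 and Msx2 23.1, and Foxd3 and Pax3 were among those that had none. Endothelial genes had summits in 15 of 26 cases, with a median of 26.9. Ephb4 (62.1), Efnb2 (60.7), Nr2f2 (55.0) and Nrp1 (48.2), of arteries, veins and guidance, were the highest, and Prox1, the lymphatic factor gene, had 41.3. Cdh5, Cldn5 and Emcn were among the 11 without a summit. Low scores were also found in this list, at Dll4 (7.51), Flt1 (9.97), Tal1 (11.5) and Eng (11.8), beside 7.69 or below for the SoxF genes' own summits.

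Partner and target genes of Sox factors had summits in 13 of 16 cases, with a median highest score of 53.5, near that of all genes (54.7). Pou2f1 (235), Mef2d (116), Col11a2 (89.9, at neighbouring genes) and Ctnnb1 (64.7) were the highest. Tead2, a target of SoxC factors, had 56.9, and Pou3f3 had 8 summits, up to 54.6. Col9a1, Dcx and Matn1 had none. Cardiac muscle genes had summits in 12 of 18 cases, with a median of 24.6, or 8.88 over 11 genes with each summit given to its nearest gene. Myom1 (76.7), Tnnc1 (75.4) and Myl4 (57.2) had theirs within 1000 bp of a neighbouring gene, that of Myl4 also lying inside Myl4. Ryr2 and Nppb (52.6 each) had theirs at no other protein-coding gene, while Actc1, Myh6 and Myh7 had no summit. Blood genes had summits in 3 of 14 cases, Epb42 (29.0), Spi1 (23.2) and Klf1 (15.2), each at a neighbouring gene, and Csf1r and Cd3e were among those without. A summit is not expression, so these lists do not check the labelled tissue, and a summit from a whole heart does not say which of its cells carried it.

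**Figure D4:**
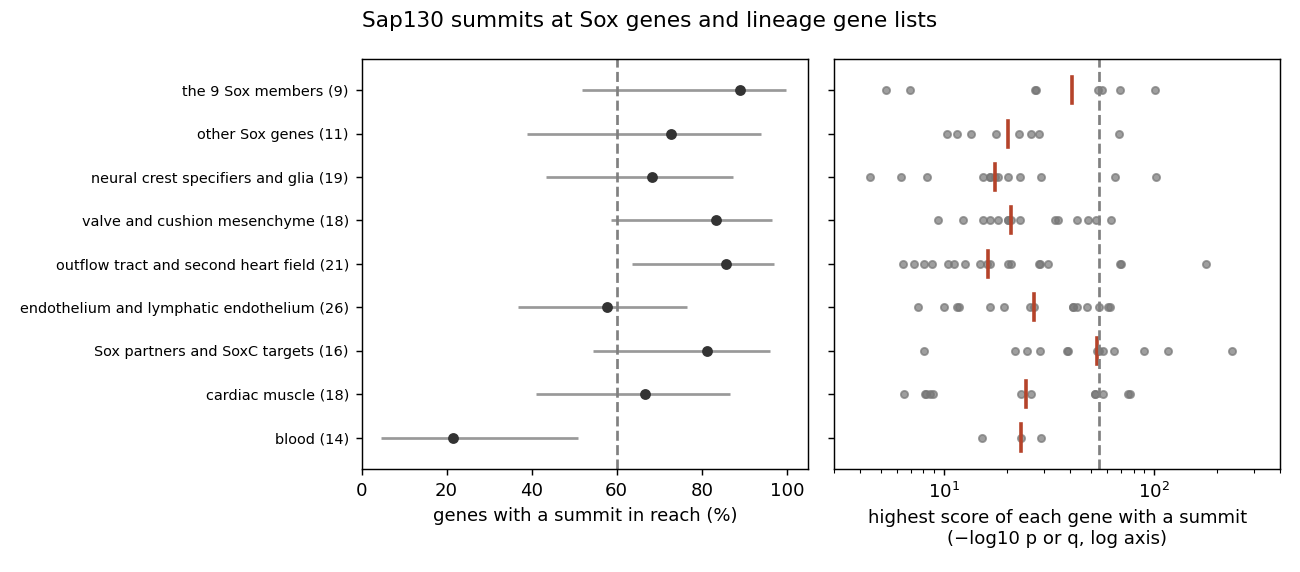
Left, percent of each list (number of genes in brackets) with a summit in reach, with exact 95% intervals. The dashed line is the share of all protein-coding genes (60.1%). The intervals cover counting error only, as if the genes were random draws. The genes were picked by name, so the intervals do not test a list against the line. Right, highest score of each gene with a summit (points, log axis), the median of the list (red bar) and that of all genes (54.7, dashed line). The 9 Sox genes lie at 88.9% with a median of 40.9 (26.7 with each summit given to its nearest gene), and blood genes at 21.4%.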

How the data were processed

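Per the labels' protocols, chromatin was precipitated with a Diagenode kit and sequencing libraries were made with an NEBNext kit. The submitters' processing notes name Bowtie 1.1.2, MACS2 2.1.0.20140616 and build GRCm38 (mm10). No source used here gives the settings or the threshold. The deposited file lists entries of 1 base, taken as summits, each with the authors' score, which has no header and was taken as a −log10 p or −log10 q. The input DNA entered only through that calling. Depth is unknown, no duplicates or widths could be examined, and intervals cover counting error only, as if genes picked by name were random draws.

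Genes were the protein-coding ones of RefSeq GRCm38.p6 on named nuclear chromosomes, leaving out, except on Y, those that start before 3 Mb, taken as unplaced scaffolds. Distances ran from the gene's outer boundaries, or from the start given by its RefSeq window. Counting was tested on simulated summits. Python 3.11.15, numpy 2.4.6 and pandas 2.3.3 were used. The text names all 9 genes, of each list up to 4 genes with the highest scores and up to 3 without a summit, and of the other Sox genes all. Some genes outside that rule (Hand2, Tbx20, Col2a1, Prox1, Tead2, Pou3f3, Dll4, Flt1, Tal1, Eng and Nppb) were chosen after their values were seen. The genes and lists were chosen with earlier results of these data known. Other reaches, score limits and ways of giving summits to genes were tried. A search for 2 longer motifs was run and is not reported. A few genes that the rule would name are not reported here.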

Additional observations from a re-analysis of the deposited data

How the results depend on the processing

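The count of 8 genes with a summit stayed at 8 with a reach of 1000, 2500 or 5000 bp (55.0%, 55.9% and 57.4% of all genes), with summits given to the nearest gene (52.4%), without summits at another gene (42.9%) and with summits within 500 bp merged (60.0%). It was 9 with 20000 bp (64.0%) and 7 within 1000 bp of a gene boundary (48.4%). It was 4 with summits at or above the median score (41.9% of all genes) and 2 with summits at or above the upper quartile of the score (24.3%). SoxC genes then held 6 and 2 summits, and 6 within 1000 bp of a boundary. SoxE genes held 1 and 0 summits, in 1 and 0 genes, and 3 at a boundary. The SoxE summit at or above the median was that of 56.8 inside Lmf1, through which alone Sox8 entered the count of 4 genes. SoxF genes held 0 and 0 summits, in 0 and 0 genes, and 3 at a boundary. The highest score was 26.2 for Sox8 and 7.69 for Sox18 with summits near a boundary or nearest to the gene. With summits at or above the median, genes with a summit numbered 1 of 11 other Sox genes, 2 of 19 for crest and glia and 6 of 18 for valve. They numbered 3 of 21 for outflow tract, 7 of 26 for endothelium and 9 of 16 for Sox partners and targets. For cardiac muscle the count was 5 of 18 and for blood 0 of 14. Blood genes numbered 0 with a reach of 1000 or 2500 bp or nearest summits and 5 with 20000 bp. In all, 104 of the alternative values were within 1.5 times the reported one and 30 were not. The order SoxC, SoxE, SoxF rests on 1 library. A summit missed at low depth cannot be told apart from one that is absent. No paired analysis was possible because there was 1 ChIP and 1 input library.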
